A study of Rattus norvegicus with 138 samples.

Results

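The caudal ventrolateral medulla (CVLM) of female spontaneously hypertensive rats (SHRs) was compared with that of normotensive Wistar-Kyoto (WKY) rats at 16 wk of age, a stage at which the hypertension of the SHR is established. The comparison was formed by strain, region and age alone and takes 6 SHR and 3 WKY libraries, 9 of the 46 CVLM libraries in the series, each from the bilateral tissue punches of 1 rat. The rats were inbred SHR/NHsd and WKY/NHsd animals of 1 vendor, housed 1 per cage, and received no treatment. The series holds a library of each of 3 regions from each of 46 rats. The rest are from the CVLM at ages of 8, 10, 12 or 24 wk, from the rostral ventrolateral medulla (RVLM) and from the nucleus tractus solitarii (NTS). They are used to show where the 16-wk CVLM difference was also found. The CVLM libraries of the other ages also entered the filter on low values and the shared fit. They thus helped to set the spread per gene behind the 16-wk p-values. Inbred strains differ at many loci besides those that set blood pressure, so that strain and hypertension cannot be told apart in these groups. Of 32883 genes in the table, 13408 passed the filter on low values and were tested.

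The CVLM lies in the ventrolateral medulla behind the RVLM and forms an inhibitory step of the baroreflex. Neurons of the NTS, which receive the baroreceptor afferents, excite GABAergic neurons of the CVLM, and these in turn inhibit the presympathetic neurons of the RVLM, so that sympathetic outflow falls when blood pressure rises. The region also holds the noradrenergic A1 cell group, which projects to the hypothalamus. The punches hold neurons, glia, vessels and blood together, and fewer cells of a type and less RNA per cell cannot be told apart in such bulk samples.

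The punches carried noradrenergic and GABAergic transcripts in both strains. Whether these tell the CVLM from the NTS or RVLM was not tested. Noradrenergic markers were present in all 9 libraries, with Th, which makes the rate-limiting enzyme of catecholamine synthesis, at 90.7, 156 and 185 CPM (counts scaled to a common library size) as the lowest, median and highest SHR values and at 136, 136 and 70.1 CPM in the WKY libraries. The GABA-synthesizing enzyme Gad1 was at 117, 161 and 176 CPM in SHRs and at 145, 174 and 103 CPM in WKY rats. Both genes overlapped between the strains. The transcripts of choroid plexus were close to 0, with a summed level of its 4 tested markers of 3.88 to 7.80 CPM in SHRs and 3.25 to 4.80 CPM in WKY rats. Total counts assigned to genes ran from 6143329 to 10831383 (median 9360335.5) in SHRs and from 9294782 to 11319792 (median 9755684) in WKY rats, and the median standard error over the tested genes was 0.20 on the log2 scale. The p-values of comparisons within a region are set against the spread between rats of a strain and age. Those of differences between regions are set against the spread that remains within rats, since each rat was a block. Adjusted p denotes the Benjamini-Hochberg value of edgeR's quasi-likelihood test over the tested genes.

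At 16 wk, 134 genes (0.999% of those tested) were called different in the CVLM, which required a change of 2-fold or more and an adjusted p no higher than 0.01. Of these, 68 were higher in SHRs (0.507%) and 66 were lower (0.492%), with a median log2 fold change of 1.99 and -1.54. Changes past 4-fold were found for 34 of the higher and 25 of the lower genes. A wider set of 305 genes (2.27%) had an adjusted p under 0.05, with 153 higher (1.14%) and 152 lower (1.13%). The median over all tested genes was 0.01 on the log2 scale. In all 134 called genes the SHR libraries lay wholly above or wholly below the WKY libraries in CPM, where 5.85% of tested genes had groups that did not overlap. The calls rest on the same values, so that this separation, here and below, is not further evidence for them. Genes named by the size of their change were also required not to overlap. The plot of fold change against level shows called genes at low, middle and high levels, though not among the most abundant transcripts above S100b. Gene symbols were lacking for 32 of the 134 called genes (23.9%), beside 8.05% of tested genes.

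**Figure D1:**
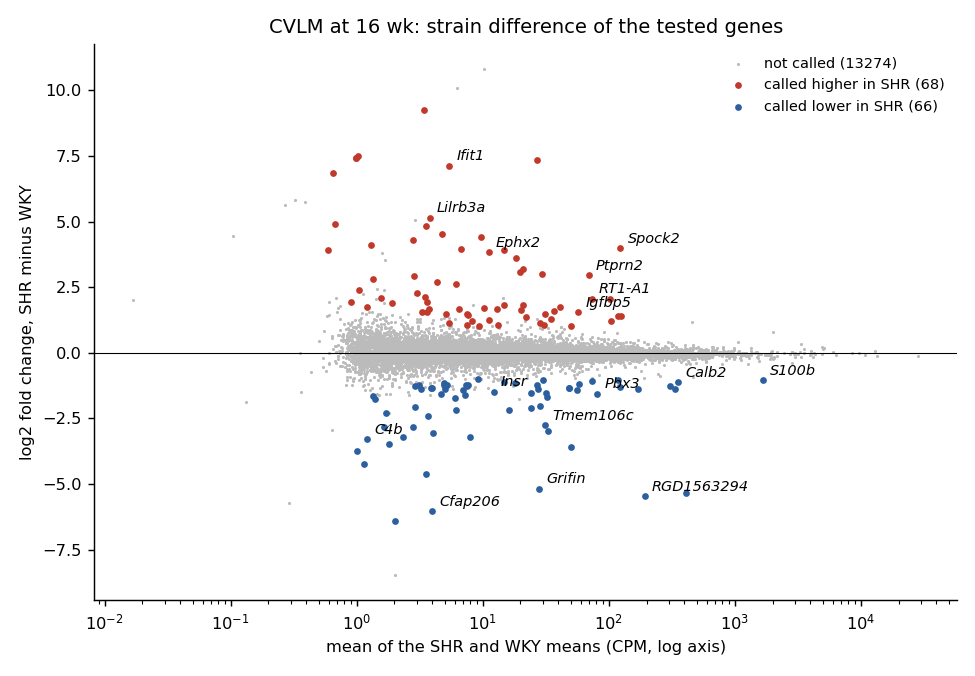
Log2 fold change between SHR and WKY libraries (vertical axis) against the mean level in CPM (horizontal log axis) for the 13408 genes tested in the CVLM at 16 wk, with called genes in red (68 higher in SHRs) and blue (66 lower). Called genes reach from low levels (Cfap206, C4b) to S100b, with a median of 1080 CPM in SHRs.

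Among the genes higher in SHRs, the largest changes in genes with a symbol and at least 20 counts on average were found for Ifit1, Lilrb3a, Apoa5, Pkp1 and Spock2, in this order. Ifit1, which encodes an interferon-induced protein that binds viral RNA, was at 2.87, 12.1 and 19.1 CPM (lowest, median and highest) in SHRs and at 0, 0.203 and 0 CPM in WKY rats. With only 2 counts in the 3 WKY libraries together against 583 in SHRs, the ratio of the group totals was 158, with an exact 95% counting interval from 43.7 to 1310. Lilrb3a, the rat homolog of the MHC class I receptor PirB, was at 5.72, 7.56 and 8.74 CPM in SHRs and at 0.089, 0 and 0.524 CPM in WKY rats (log2 fold change 5.15 ± 0.58, SE; adjusted p = 1.49e-08). For both genes every SHR library stood above every WKY library, which the rule that named them required, and the WKY values rest on few counts.

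Ephx2, Apoa5 and Pxmp4 were also among the genes with the largest increases. Ephx2, the soluble epoxide hydrolase that breaks down vasodilator epoxides of arachidonic acid, was at 18.3, 20.8 and 22.7 CPM in SHRs and at 1.69, 1.42 and 1.26 CPM in WKY rats, a difference of 3.83 ± 0.22 on the log2 scale (adjusted p = 1.98e-17). Apoa5, an apolipoprotein that lowers plasma triglycerides, was at 5.66, 6.55 and 8.70 CPM in SHRs and at 0.089, 0 and 0.629 CPM in WKY rats. Pxmp4, a peroxisomal membrane protein, ran from 29.7 to 37.0 CPM in SHRs and from 2.20 to 3.65 CPM in WKY rats. Other genes of lipid or xenobiotic metabolism, Pnpla1, Nr1i3, Fmo2 and Retsat, were chosen after their values were seen. The lipase-family gene Pnpla1 and the xenobiotic receptor Nr1i3 were also higher, by 2.69 ± 0.33 and 1.65 ± 0.26 on the log2 scale. The flavin monooxygenase Fmo2 went the other way, at 0.0896, 0.225 and 0.971 CPM in SHRs and at 3.56, 2.64 and 2.41 CPM in WKY rats (-2.82 ± 0.60, adjusted p = 0.00252). Retsat, which saturates retinol, was lower as well, at 62.8, 71.5 and 79.4 CPM in SHRs and at 171, 187 and 173 CPM in WKY rats (-1.31 ± 0.072, adjusted p = 9.90e-18).

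The proteoglycan gene Spock2 and the vesicle gene Ptprn2 were higher in SHRs as well. Spock2, a brain proteoglycan of the testican family, was at 201, 234 and 266 CPM in SHRs and at 14.9, 13.4 and 15.8 CPM in WKY rats (3.99 ± 0.19, adjusted p = 6.23e-20). Ptprn2, a membrane protein of dense-core vesicles, was at 112, 125 and 131 CPM in SHRs and at 11.7, 21.9 and 13.7 CPM in WKY rats (2.97 ± 0.33, adjusted p = 1.09e-08). Sept5, a septin found at synaptic vesicles that was chosen after its values were seen, ran from 117 to 211 CPM in SHRs and from 30.5 to 48.1 CPM in WKY rats. Pkp1, a plakophilin of desmosomes, ran from 6.81 to 12.4 CPM in SHRs and was at most 0.445 CPM in WKY rats. None of these groups overlapped, which for Spock2, Ptprn2 and Pkp1 the rule that named them required. The remaining genes that the ranking by size names as higher were Tomm40l, a subunit-like gene of the mitochondrial import pore (3.00 ± 0.15), Tmem94 (3.09 ± 0.31), Pbld1 (3.18 ± 0.18) and Cd4, the T cell coreceptor that rat microglia and macrophages also express (2.92 ± 0.46).

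Among genes with a mean of at least 20 counts, Cfap206 fell the most in SHRs. Cfap206, which encodes a protein of the axonemal radial spokes, was at 0, 0.0941 and 0.324 CPM in SHRs, with 6 counts in all 6 libraries, and at 7.56, 7.71 and 8.18 CPM in WKY rats (-6.04 ± 0.56, adjusted p = 7.77e-11). Grifin, a galectin-related gene known from the lens, was at 0.717, 1.49 and 2.73 CPM in SHRs and at 77.3, 45.1 and 42.5 CPM in WKY rats (-5.17 ± 0.35). Both stood far apart in level between the strains in every library. Ependymal cells carry motile cilia, and 0 of their 4 tested markers had an adjusted p under 0.05, beside 2.27% of all tested genes. None had an unadjusted p under 0.05, and their summed level was 9.55 to 15.5 CPM in SHRs and 9.13 to 12.3 CPM in WKY rats. Further lower genes by size were Tstd1, a sulfur transferase (-3.05 ± 0.34), Tmem106c (-2.76 ± 0.14), the condensin subunit Ncaph (-2.40 ± 0.34), the hydrolase-like genes Serhl2 (-2.20 ± 0.22) and Haghl (-2.11 ± 0.15), the ubiquitin ligase Lrsam1 (-2.19 ± 0.40), the actin-binding Aif1l (-2.03 ± 0.16) and Epb41l1, a cytoskeletal linker of neurons (-1.68 ± 0.22).

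Some of the largest differences belonged to genes that carry only a provisional name. AABR07052523.1 was at 17.4, 19.1 and 22.2 CPM in SHRs and at 833, 815 and 751 CPM in WKY rats, and RGD1563294 was at 7.55, 8.39 and 11 CPM against 420, 389 and 329 CPM. AABR07044404.1 went the other way, with 4.05 to 12.5 CPM in SHRs and 0 counts in the WKY libraries, so that it was at least 70.2-fold higher in SHRs when the WKY group is set at 3 counts. AABR07064061.1 was at 49.7 to 63.6 CPM in SHRs, and in WKY rats it was at 0.890, 0 and 0 CPM. LOC100911830 (4.42 ± 0.30) and AC127140.1 (4.31 ± 0.50) were higher too, and AABR07000733.1 (-4.63 ± 0.35) and LOC100909441 (-3.60 ± 0.63) were lower. Reads of both strains were mapped to the same Brown Norway rat reference, and how sequence differences between SHR and WKY bear on these counts was not tested.

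**Figure D2:**
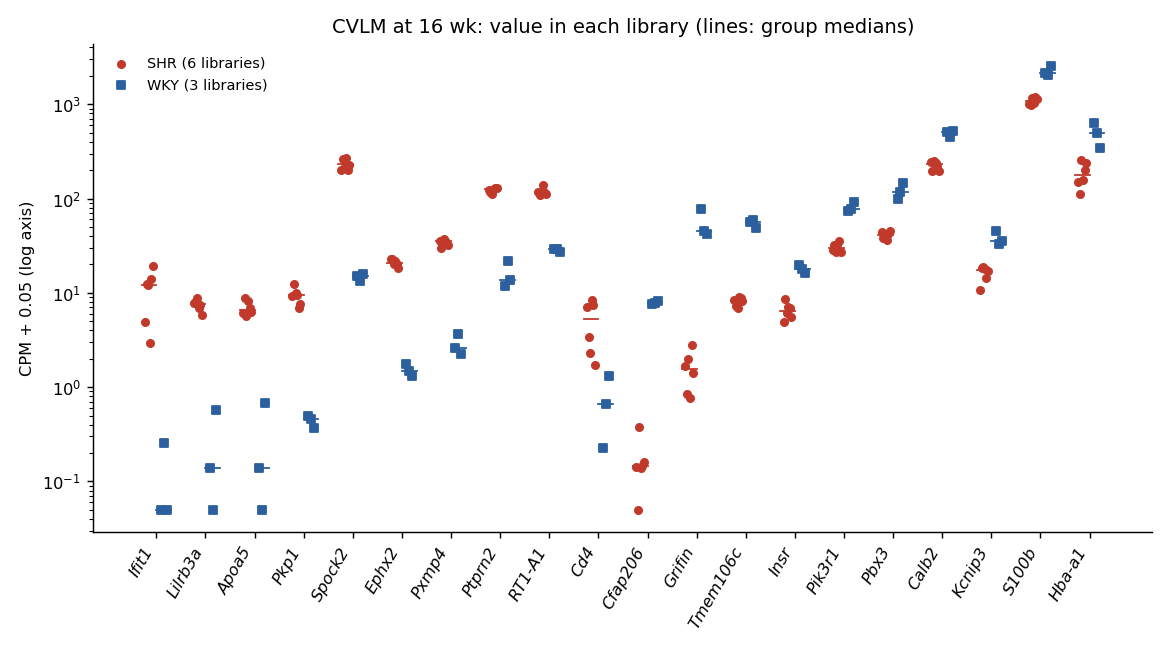
Value in each of the 6 SHR (red circles) and 3 WKY (blue squares) libraries of the CVLM at 16 wk, as CPM + 0.05 on a log axis, for 20 genes described in the text, with short lines at the group medians. In every gene shown the strains occupy separate ranges, from Ifit1, where the SHR values spread from 2.87 to 19.1 CPM, to S100b, where the SHR libraries have a median of 1080 CPM and the WKY libraries start at 2070 CPM. All genes shown were called from these values, and those named by size were required not to overlap.

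Further called genes were chosen for their known roles after their values were seen. Of insulin signalling, the receptor Insr was at 4.82, 6.40 and 8.48 CPM in SHRs and at 16.4 to 19.8 CPM in WKY rats (-1.49 ± 0.19, adjusted p = 2.04e-07), and Pik3r1, the regulatory subunit of the phosphoinositide 3-kinase that it recruits, was at 27.3, 30.1 and 35.1 CPM against 74.1, 77.8 and 92.7 CPM (-1.42 ± 0.14, adjusted p = 7.92e-10). The transcription factor Pbx3 was at 35.9, 41.4 and 44.7 CPM in SHRs and at 98.7, 116 and 147 CPM in WKY rats (-1.56 ± 0.11). Reep1, which shapes the endoplasmic reticulum of axons, fell by 1.37 ± 0.13 on the log2 scale. None of these 4 genes overlapped between strains. Of mitochondria and the secretory pathway, the chaperone Dnaja3 (-1.03 ± 0.074), the iron-sulfur protein Cisd2 (-1.06 ± 0.13), the coat protein Sec23b (-1.18 ± 0.092) and Arfgap1 (-1.53 ± 0.12) were lower. The symbol Ndufa10l1 stands for 2 gene identifiers, ENSRNOG00000016470 at -1.25 ± 0.077 and ENSRNOG00000062245 at -3.47 ± 0.75, and how reads were split between such near copies is uncertain. Cbs, which makes cystathionine and hydrogen sulfide, the clotting initiator F3 and the glial glycoprotein Chi3l1 were higher, by 1.47 ± 0.18, 1.28 ± 0.15 and 1.74 ± 0.12, while fibronectin Fn1 was lower (-1.12 ± 0.17).

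The calcium-binding proteins Calb2 and S100b were lower in SHRs, of which Calb2 was chosen for description after its values were seen. Calb2, which encodes calretinin, a calcium buffer of subsets of interneurons, was at 195, 231 and 251 CPM in SHRs and at 505, 445 and 519 CPM in WKY rats (-1.12 ± 0.14, adjusted p = 2.05e-07). S100b, a calcium-binding protein of astrocytes, was at 989, 1080 and 1200 CPM in SHRs and at 2170, 2070 and 2530 CPM in WKY rats (-1.05 ± 0.11, adjusted p = 4.91e-09). The lowest WKY library stood far above the highest SHR library in both genes. Of the 8 astrocyte markers, S100b alone passed an adjusted p under 0.05. The summed level of the other 7 was 5110, 5400 and 5950 CPM in SHRs and 5440 to 5970 CPM in WKY rats, and these ranges overlapped. Of 8 oligodendrocyte markers, the myelin protein gene Mobp was lower (-0.93 ± 0.12, adjusted p = 5.90e-07) and Cldn11, of the myelin tight junction, was higher (0.54 ± 0.14, adjusted p = 0.0194), while Mbp had a log2 fold change of -0.11. Cldn11 no longer passed 0.05 without any 1 of the 3 WKY libraries (adjusted p = 0.0622, 0.0965 and 0.152) and without SHR replicate 5 (adjusted p = 0.0582). No marker passed for neurons (8 tested), GABAergic and glycinergic (4), glutamatergic (1), noradrenergic and adrenergic (6), cholinergic motor (6) or serotonergic neurons (4). The same held for oligodendrocyte precursors (5), microglia (8), endothelium (6), pericytes and smooth muscle (6), leptomeninges (7) and Schwann cells (4). In each of the serotonergic, microglial, pericyte and Schwann cell lists 1 marker had an unadjusted p under 0.05, in the others none. No marker of these lists had an adjusted p under 0.05 with DESeq2 or limma voom. With 2.27% of all tested genes at that threshold in edgeR, 0 in lists this short is near the share over all genes.

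In the CVLM at 16 wk, edgeR gave no gene of the baroreflex transmitter systems at an adjusted p under 0.05, beside 2.27% of all tested genes. For lists this short, 0 is near that share. Of genes for GABA and glycine synthesis, release and uptake, 0 of 10 passed an adjusted p under 0.05, with a median log2 fold change of 0.14, and the same held for 0 of 21 GABA and glycine receptors (median 0.11) and 0 of 33 glutamate receptors and transporters (median 0.03). Gad2 had a log2 fold change of 0.24 ± 0.19, the glycine transporter Slc6a5 of 0.40 ± 0.25, the vesicular GABA transporter Slc32a1 of 0.43 ± 0.36 and the vesicular glutamate transporter Slc17a6 of 0.10 ± 0.16. For catecholamine synthesis and transport 0 of 11 genes passed (median 0.16), with Th at 0.38 ± 0.27, Dbh at 0.35 ± 0.27 and Pnmt at 0.13 ± 0.34, and for adrenergic receptors 0 of 6, with Adra2a at 0.65 ± 0.44. For cholinergic genes it was 0 of 15, with Chat at 0.27 ± 0.34. Standard errors of this size limit what these comparisons could show, and a p that missed the threshold does not show equal levels. At an unadjusted p under 0.05 stood 1 GABA or glycine receptor (Glra2), 1 glutamate receptor (Grik1) and 1 cholinergic gene, and none of the other genes of these 6 lists. With DESeq2, Glra2 and Grik1 had an adjusted p under 0.05, and with limma voom no gene of these lists did. Of 12 genes of the renin-angiotensin system none passed (4 at an unadjusted p under 0.05), with Agt at 0.13 ± 0.15, Ace at -0.41 ± 0.13 (adjusted p = 0.132) and Agtr1a at 0.68 ± 0.32 (adjusted p = 0.588). The lists of 52 neuropeptides and receptors, 29 calcium channel genes, 28 genes of synaptic vesicle release and 35 complex I subunits also held 0 genes that passed. At an unadjusted p under 0.05 they held 4, 0, 2 and 0, and none passed with DESeq2 or limma voom.

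Of 53 sodium and potassium channel genes, 2 had an adjusted p under 0.05 (3.77%, beside 2.27% of all tested genes). Kcnip3, a calcium sensor that associates with Kv4 channels and also represses transcription, was at 10.6, 17.5 and 18.9 CPM in SHRs and at 45.6, 32.7 and 35.5 CPM in WKY rats (-1.23 ± 0.15, adjusted p = 5.25e-08). Kcne5, an auxiliary subunit of potassium channels, was at 8.91, 11.5 and 13.3 CPM in SHRs and at 4.98, 4.97 and 5.03 CPM in WKY rats (1.20 ± 0.27, adjusted p = 0.00519). Neither gene overlapped between strains, with Kcnip3 lower and Kcne5 higher in each SHR library. Kcnip2 was at 8.69 to 15.6 CPM in SHRs and at 5.96, 5.07 and 0 CPM in WKY rats, and with this spread it did not pass (1.81 ± 0.71, adjusted p = 0.337).

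Antigen presentation was the list with the most changes, and its members went in both directions. Of 28 tested genes, 6 were higher and 3 lower at an adjusted p under 0.05 (32.1%, beside 2.27% of all tested genes), with a median log2 fold change of -0.03. The study names members of this family from these same rats, so that the count is not independent evidence. Class I genes, which present peptides to CD8 T cells, changed unequally. RT1-A1 was at 110, 116 and 137.5 CPM in SHRs and at 29.1, 29.3 and 26.7 CPM in WKY rats (2.06 ± 0.14, adjusted p = 5.64e-15), whereas RT1-A2 was at 2.34, 3.21 and 4.30 CPM against 7.21, 9.54 and 5.35 CPM (-1.21 ± 0.26, adjusted p = 0.00258). RT1-N2 (-2.05 ± 0.35) and RT1-N3 (-1.31 ± 0.35) were lower. RT1-A1 and RT1-A2 are near copies on a polymorphic locus, and reads could be divided between them differently in SHR and WKY rats, which was not tested. RT1-A2 had adjusted p = 0.0916 without WKY replicate 2. RT1-N3 no longer passed 0.05 without any 1 of the 3 WKY libraries or without SHR replicate 3 or 4 (adjusted p from 0.0592 to 0.128).

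The class II genes RT1-Db1 and RT1-DOb, the immunoproteasome gene Psmb8 and the peptide loading gene Tapbp were higher. Other class II genes of the list did not pass, with log2 fold changes of 0.18 for RT1-Da, 0.48 for the invariant chain Cd74, -1.06 for RT1-DMa and -1.0 for RT1-DMb. RT1-Db1 was at 1.27, 2.47 and 3.02 CPM in SHRs and at 0.178, 0.304 and 0.524 CPM in WKY rats, with adjusted p = 0.00622 that became 0.0964 without WKY replicate 1 and 0.0555 without WKY replicate 2. RT1-DOb, a chaperone chain of class II loading, had 4 counts in the WKY libraries and 140 in SHRs. Psmb8, an immunoproteasome subunit, was at 9.5, 11.9 and 14 CPM in SHRs and at 5.34, 6.09 and 7.13 CPM in WKY rats (0.94 ± 0.19, adjusted p = 0.00159). Tapbp, the tapasin that loads class I molecules, ran from 43.9 to 60.2 CPM in SHRs and from 26.6 to 34.2 CPM in WKY rats (0.79 ± 0.18), and its adjusted p was 0.0941 without WKY replicate 3. Slc11a1, a metal transporter of phagocytes that was chosen after its values were seen, was higher by 2.61 ± 0.28. The microglial genes Csf1r (0.07 ± 0.12) and Cx3cr1 (-0.05 ± 0.17) had values that overlapped between strains.

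Complement genes gave 3 genes at an adjusted p under 0.05 of 23 (13%, beside 2.27% of all tested genes). An unadjusted p under 0.05 in edgeR was reached by 7 of the 23, beside 991 of all 13408 tested genes. With DESeq2, 4 had an adjusted p under 0.05 (C1s, C3, C4b and Cfb), and with limma voom 2 did. C4b, a component of the classical and lectin pathways, was at 0, 0.168 and 0.565 CPM in SHRs and at 1.78, 2.03 and 2.83 CPM in WKY rats (-3.30 ± 0.61, adjusted p = 3.37e-04). C1s, the protease that cleaves it, was at 4.63, 5.78 and 6.72 CPM in SHRs and at 10.6, 9.23 and 10.5 CPM in WKY rats (-0.80 ± 0.21, adjusted p = 0.0237), and C1r had a log2 fold change of -0.55 ± 0.17 (adjusted p = 0.0787). Cfb, factor B of the alternative pathway, was at 3.18, 5.39 and 8.66 CPM in SHRs and at 0.445, 0 and 0 CPM in WKY rats (5.06 ± 1.4, adjusted p = 0.0333). The WKY libraries held 5 counts of Cfb, all in replicate 1. C1s and Cfb did not stay under an adjusted p of 0.05 when single libraries were left out. For C1s this held without WKY replicate 1, 2 or 3 (0.142, 0.0519 and 0.113) or SHR replicate 2 or 3 (0.0616 and 0.0503). For Cfb it held without any 1 WKY library (0.0779 to 0.212) or SHR replicate 5 or 6 (0.0589 and 0.0546). C4b stayed under 0.05 in each of these fits.

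Interferon-induced genes other than Ifit1 mostly had lower values in SHRs without passing the test. Of 33 tested genes, 26 (78.8%) had a negative log2 fold change, beside 48.0% of all tested genes, and the median was -0.40. An unadjusted p under 0.05 in edgeR was reached by 10 of the 33, in either direction, beside 991 of all 13408 tested genes. At an adjusted p under 0.05 stood 2 of them in edgeR (Ifit1 and Ifit2), 2 with DESeq2 and 3 with limma voom. In 28 of the 33 genes the strains overlapped and in 5 they did not, beside 5.85% of all tested genes without overlap. The summed level of the list was 298.8, 454.5 and 517.7 CPM in SHRs and 492.6, 571.2 and 585.1 CPM in WKY rats. Ifit2, a neighbour of Ifit1 in the same gene cluster, was at 4.27, 7.97 and 14.4 CPM in SHRs and at 18.1, 14.5 and 21.0 CPM in WKY rats (-1.05 ± 0.29, adjusted p = 0.0438), the reverse of Ifit1. This call was lost without any 1 of the WKY libraries (adjusted p = 0.170, 0.0583 and 0.290) and without SHR replicate 1, 4 or 5 (0.130, 0.128 and 0.123). Ifit3 (-0.81 ± 0.47), Isg15 (-0.76 ± 0.40), Oasl (-1.41 ± 0.44, adjusted p = 0.096), Usp18 (-0.97 ± 0.38) and Irf7 (-0.40 ± 0.44) did not pass. The SHR libraries differed among themselves in these genes, with Irf7 between 3.09 and 24.7 CPM.

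The promoters of this list are shown because its members share a response element by which interferon-activated STAT and IRF factors act. The letters GAAA, any 2 bases and again GAAA were searched on both strands in the 300 bases from 250 before to 50 after each annotated start (RefSeq, build GRCr8, another build than that of the counts). They were found for 19 of the 25 tested list members with a promoter in the table (76.0%) and for 4.12% of all 27457 genes with one. Matches can overlap one another, and promoters of Ifit1 and Ifit2 were not used here. A match is a description of the reference sequence and not of either strain. The sequences are the 250 bases before the start of 3 list members that did not pass the test, on the strand of the gene, with matches to the motif or its reverse complement in capitals. They are Ifit3, Ifi27 (-0.52 ± 0.21) and the antiviral enzyme gene Rsad2 (-0.44 ± 0.42).
Ifit3, chr1:241527076-241527325, plus strand: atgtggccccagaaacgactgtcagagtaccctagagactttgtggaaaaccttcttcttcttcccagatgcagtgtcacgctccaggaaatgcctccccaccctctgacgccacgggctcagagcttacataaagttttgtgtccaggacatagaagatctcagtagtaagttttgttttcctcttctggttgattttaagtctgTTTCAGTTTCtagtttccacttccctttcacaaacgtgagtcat
Ifi27, chr6:128355062-128355311, plus strand: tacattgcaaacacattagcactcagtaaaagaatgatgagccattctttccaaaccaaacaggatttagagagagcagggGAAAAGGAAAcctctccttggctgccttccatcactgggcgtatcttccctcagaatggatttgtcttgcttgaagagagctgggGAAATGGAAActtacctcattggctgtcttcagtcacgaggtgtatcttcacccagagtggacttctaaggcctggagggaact
Rsad2, chr6:48788121-48788370, minus strand: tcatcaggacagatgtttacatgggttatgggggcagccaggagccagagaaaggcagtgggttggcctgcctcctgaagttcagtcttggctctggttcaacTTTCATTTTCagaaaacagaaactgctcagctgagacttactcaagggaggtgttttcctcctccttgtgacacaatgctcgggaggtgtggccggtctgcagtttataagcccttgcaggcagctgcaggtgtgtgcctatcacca
In Ifit3 the match began 44 bases before the start, in Rsad2 147 bases before it, and Ifi27 held 2, which began 169 and 84 bases before it.

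**Figure D3:**
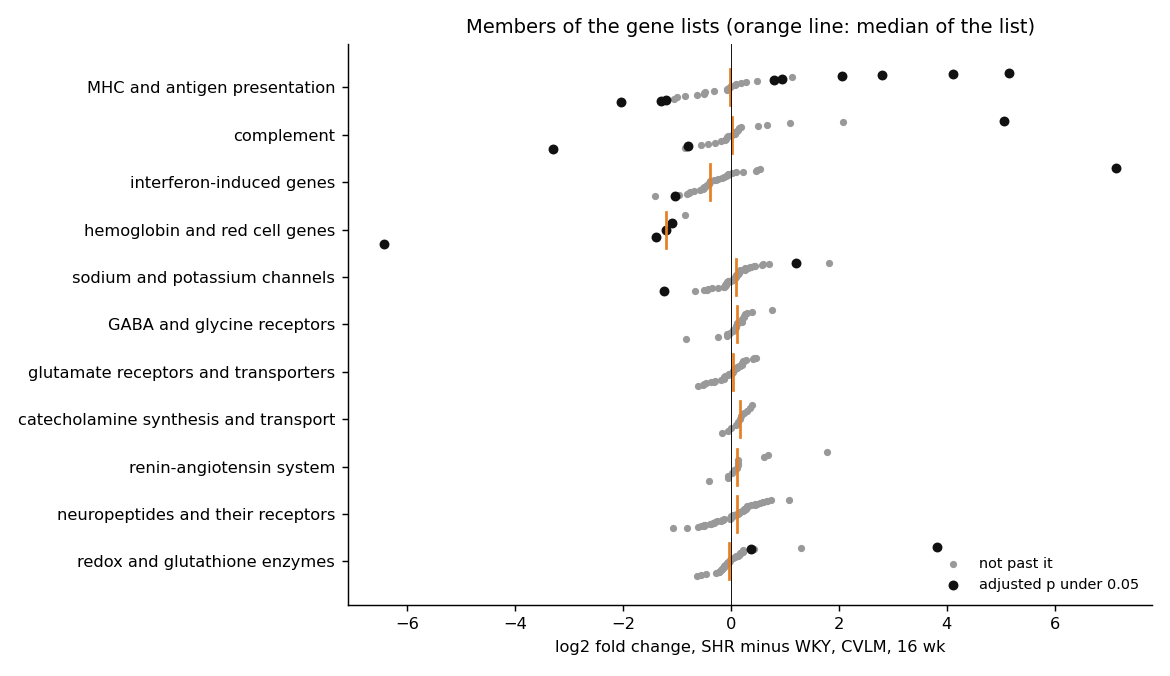
Log2 fold change between SHR and WKY libraries in the CVLM at 16 wk (horizontal axis) for each tested member of 11 gene lists (rows), with members at an adjusted p under 0.05 in black, the others in grey and the median of the list as an orange line. Antigen presentation has 6 black points to the right and 3 to the left, interferon-induced genes lie mostly left of 0 with Ifit1 far to the right, and the transmitter lists have none.

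Hemoglobin transcripts were lower in SHRs. Of 5 tested genes of the red cell list, 4 passed an adjusted p under 0.05, all of them lower (80.0%, beside 1.13% of all tested genes). Hba-a1 was at 112, 179 and 257 CPM in SHRs and at 625, 491 and 346 CPM in WKY rats (-1.39 ± 0.31, adjusted p = 0.00402), and Hbb was at 134, 210 and 291 CPM against 592, 474 and 335 CPM (-1.10 ± 0.27, adjusted p = 0.0157). Hba-a2 had a log2 fold change of -1.21 ± 0.30. The groups did not overlap in any of these, with the lowest WKY value in replicate 3 each time. Without WKY replicate 1, adjusted p was 0.0896 for Hba-a1, 0.226 for Hba-a2 and 0.264 for Hbb, and without WKY replicate 2 it was 0.0654 for Hba-a2 and 0.0730 for Hbb. Hba-a3 differed in another way, with 2 counts in all SHR libraries and 123 in the WKY libraries (-6.43 ± 0.55), and it is a near copy of the other alpha-globin genes. Albumin Alb, a plasma protein gene of the liver that was chosen after its values were seen, was at 1.45, 2.23 and 3.48 CPM in SHRs and at 8.27, 7.31 and 5.24 CPM in WKY rats. The summed level of the red cell markers was 292.1 to 633 CPM in SHRs and 799.7 to 1436 CPM in WKY rats, and the part of blood left in the punches in these differences was not tested.

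Other lists held few changes, to be read beside the 2.27% of all tested genes with an adjusted p under 0.05. Of 38 redox and glutathione enzymes, catalase Cat was higher (160, 177 and 186 CPM in SHRs and 141, 132 and 135 CPM in WKY rats, 0.37 ± 0.075, adjusted p = 0.00131) beside Ephx2, and Sod1 had a log2 fold change of 0.22 ± 0.15. Of 21 collagen genes, Col16a1 was lower (-0.98 ± 0.21, adjusted p = 0.00274), with an adjusted p of 0.0551 without WKY replicate 1. Among 8 tested candidate genes of the SHR, Ephx2 and Igfbp5 were higher. The study names Igfbp5 from these same rats, so that its place in this list is not independent evidence. Of 4 tested choroid plexus markers, whose summed level is given above, the klotho gene Kl was higher (1.68, 2.03 and 3.84 CPM in SHRs and 0.890, 0.507 and 0.210 CPM in WKY rats, adjusted p = 0.0370), with adjusted p = 0.182 without WKY replicate 2, 0.315 without WKY replicate 3, 0.0969 without SHR replicate 2 and 0.0589 without SHR replicate 4. Lists of 9 immediate early genes, 17 clock genes, 13 glucocorticoid-responsive genes and 22 genes of cytokine and pattern recognition signalling held 0 that passed in edgeR, DESeq2 or limma voom, with 0, 1, 2 and 3 at an unadjusted p under 0.05.

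The genes that the study names for the CVLM were looked up as a list, and since the study chose them on these samples the count is not independent evidence. The study named them over all its ages, partly by fold change alone or at a looser q value. A gene that misses an adjusted p under 0.05 at 16 wk therefore does not contradict the study. Of 22 tested, 3 were higher (Igfbp5, Kcne5 and Lilrb3a) and 2 lower (C1s and Kcnip3) at 16 wk (22.7%, beside 2.27% of all tested genes). Igfbp5, which binds insulin-like growth factors, was at 61.5, 78.5 and 131 CPM in SHRs and at 31.2, 24.5 and 32.5 CPM in WKY rats (1.54 ± 0.28, adjusted p = 2.47e-04). The glutamate receptor subunit Grik1 (-0.61 ± 0.18, adjusted p = 0.0543), the glycine receptor subunit Glra2 (0.76 ± 0.23, adjusted p = 0.069) and the calcitonin receptor partner Ramp1 (-0.61 ± 0.21, adjusted p = 0.155) did not pass. Neither did Hcrtr1 (-0.33 ± 0.19), Itgb2 (-0.30 ± 0.18), Cacng5 (-0.50 ± 0.32), Nlrx1 (0.22 ± 0.14), Chrna3 (0.30 ± 0.29), Slc5a7 (0.22 ± 0.32), Aif1 (-0.17 ± 0.21), Kcnj14 (-0.10 ± 0.19), Abat (-0.08 ± 0.15), Slc18a3 (0.01 ± 0.43) or Tac1, which was at 61.5, 83.4 and 90.5 CPM in SHRs and at 88.4, 89.6 and 62.6 CPM in WKY rats.

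The CVLM of rats at the other ages gave the same directions. Of the 134 genes called at 16 wk, all had the same sign at 8, 12 and 24 wk and 133 at 10 wk (the exception was Isg20), each age with its own rats. An adjusted p under 0.05 with that sign was reached by 127, 124, 116 and 121 of them. Over all 13408 tested genes, 262 were called at 1 or more CVLM ages, 16 wk included. The shares of all tested genes with such a sign or p at the other ages are not given here. Genes higher at 16 wk had a median log2 fold change of 2.02, 2.0, 1.76 and 1.86 at 8, 10, 12 and 24 wk, and genes lower at 16 wk of -1.46, -1.60, -1.51 and -1.46. In all, 86 were called at each of the other 4 ages, and 5 at none of them. Spock2 was higher by 4.49, 5.04, 4.52 and 4.24 on the log2 scale over these ages in order, Ephx2 by 3.97, 4.46, 4.42 and 4.24, and Insr was lower by -1.27, -1.63, -1.71 and -1.59. S100b ran from -1.25 to -0.96 over these ages. Large strain differences were thus present from 8 wk on, the youngest rats of the series.

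A difference in strain effect between 16 wk and the mean of the other 4 ages was not found for any gene at an adjusted p under 0.05 (edgeR, 0 of 13408). At an unadjusted p under 0.05 stood 278 genes (2.07%), fewer than that threshold gives by chance. DESeq2 gave 3 genes in the same comparison. The 3 genes with the lowest p were Mtap, which salvages methylthioadenosine (-0.64 ± 0.17 more at 16 wk, unadjusted p = 5.30e-04), Fmod, a collagen-binding proteoglycan (1.34 ± 0.39) and Spock2 (-0.59 ± 0.17), each with adjusted p = 1.00. Of the 5 genes called only at 16 wk, Calb2 had a log2 fold change of -0.47, -0.73, -0.97 and -0.96 from the youngest to the oldest of the other ages, beside -1.12 at 16 wk, and passed an adjusted p under 0.05 at each of them without reaching 2-fold. Igfbp4, a binding protein of insulin-like growth factors (-1.77 ± 0.40), passed at 10 wk and Cpne7, a copine (1.13 ± 0.27), at 8 wk. C4b and the interferon-induced exonuclease Isg20 (-1.65 ± 0.39) passed at no other age, where they ran from -1.51 to -0.78 and from -0.61 to 0.56. For these 5 genes the difference from the other ages had an adjusted p of 1.00, so that none was shown to be particular to 16 wk. Igfbp4 lost its 16-wk call without WKY replicate 2 (adjusted p = 0.106), and Cpne7 without WKY replicate 1 (adjusted p = 0.194).

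**Figure D4:**
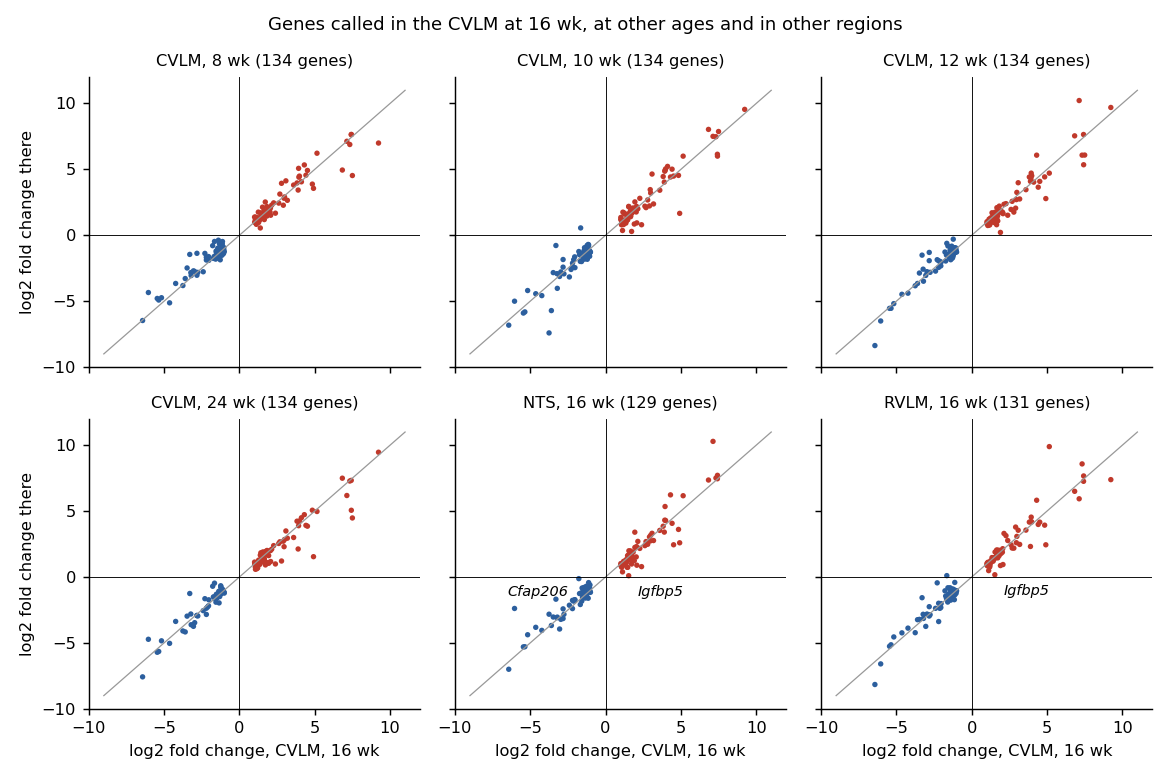
Log2 fold change between SHRs and WKY rats of the genes called in the CVLM at 16 wk (horizontal axis) against that in the CVLM at 8, 10, 12 and 24 wk and in the NTS and RVLM at 16 wk (vertical axis, 1 panel each), with genes higher at 16 wk in red, genes lower in blue and the line of equal values in grey. Nearly all points lie in the quadrants of equal sign, and Cfap206 and Igfbp5 lie closer to 0 in the NTS than in the CVLM.

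Most of the called genes also differed in the NTS and RVLM of the same rats. These are other punches of the same 9 animals, so that they are not independent of the CVLM. Of the 134 genes, 129 were tested in the NTS and had the same sign there, and 90 were called. In the RVLM, 131 were tested, 130 had the same sign and 98 were called. The exception in the RVLM was Isg20 (0.10). The shares of all tested genes called in the NTS and RVLM are not given here. In all, 73 genes were called in the CVLM at 16 wk, at its 4 other ages and in both other regions at 16 wk.

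In a joint fit of the libraries of all 3 regions with the rat as a block, 1 of 13116 genes differed in strain effect between the CVLM and the NTS at 16 wk at an adjusted p under 0.05 (198 at an unadjusted p under 0.05), and 0 between the CVLM and the RVLM (181 unadjusted). Both unadjusted counts are fewer than that threshold gives by chance. The 1 gene that passed was Cfap206. In the NTS it was at 3.79, 6.39 and 10.0 CPM in SHRs and at 35.0, 34.4 and 29.0 CPM in WKY rats, and in the RVLM at 0, 0 and 0.327 CPM in SHRs and at 8.39, 6.79 and 11.1 CPM in WKY rats. SHRs were thus lower in all 3 regions, close to 0 in the CVLM and RVLM but not in the NTS. The strain effect was -6.04 in the CVLM, -2.39 in the NTS and -6.59 in the RVLM on the log2 scale. The difference between CVLM and NTS was -3.70 ± 0.64 (adjusted p = 0.00175). In each fit that left out 1 of the 9 rats, 1 gene had an adjusted p under 0.05, but which gene it was was not recorded.

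For Igfbp5 and Calb2 the strain difference of the CVLM was smaller in both other regions, and for Pbx3 in the NTS only, without passing the test of the difference. Igfbp5 was at 19.2, 36.0 and 44.4 CPM in SHRs and at 27.0, 22.9 and 43.4 CPM in WKY rats in the NTS, and at 11.3, 16.4 and 23.2 CPM against 12.3, 9.14 and 21.9 CPM in the RVLM. Its strain effect was 1.54 in the CVLM, 0.10 in the NTS and 0.17 in the RVLM, and the differences between regions were 1.40 ± 0.56 and 1.28 ± 0.57 (unadjusted p = 0.0141 and 0.0272, adjusted p = 1.00 for both). At the other ages of the CVLM it was higher in SHRs by 2.13, 2.19, 1.31 and 1.75 on the log2 scale. Calb2 differed by -0.43 in the NTS and -0.41 in the RVLM, against -1.12 in the CVLM (unadjusted p of the differences 0.0589 and 0.0749). Pbx3 was lower by -0.84 in the NTS and -1.77 in the RVLM, with a difference of -0.71 ± 0.17 between CVLM and NTS (unadjusted p = 5.65e-05, adjusted p = 0.370) and of 0.20 ± 0.17 between CVLM and RVLM. In the CVLM the strains stood apart in all 3 genes, and in the NTS the Igfbp5 values overlapped.

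**Figure D5:**
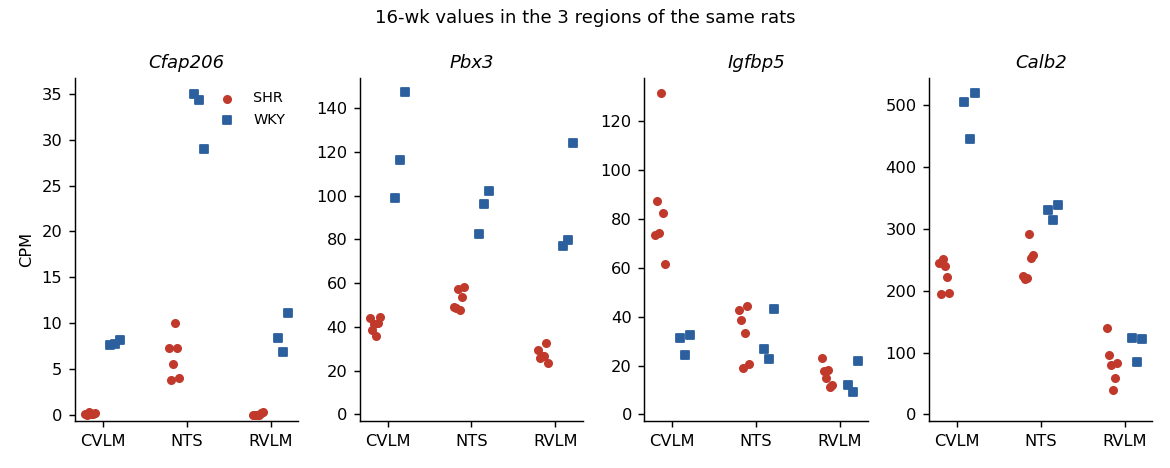
CPM of Cfap206, Pbx3, Igfbp5 and Calb2 (1 panel each, linear axes of different range) in the CVLM, NTS and RVLM of the same 16-wk rats, with 6 SHR libraries as red circles and 3 WKY libraries as blue squares per region. The 6 SHR libraries of Cfap206 lie at 0 to 0.324 CPM in the CVLM and at 3.79 to 10.0 CPM in the NTS, and the strains are separate for Igfbp5 in the CVLM but overlap in the NTS and RVLM.

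Some called genes lie next to each other in the genome. Gene order was read from the RefSeq annotation of GRCr8, in which 98 of the 134 called genes could be placed. Of these, 13 (13.3%) had another called gene among the 5 tested genes on either side, beside 7.46% of the 12024 tested genes that were placed. Among the neighbours were Hba-a1 with Hba-a3, Nr1i3 with Tomm40l, Prss35 with Ube3d, RT1-A1 with RT1-A2, and C4b with RT1-Db1 and RT1-DOb. Nr1i3 and Tomm40l went the same way, as did the alpha-globin genes, whereas RT1-A1 and RT1-A2, and C4b and its class II neighbours, went opposite ways.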

How the data were processed

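Total RNA from bilateral punches of the CVLM, NTS and RVLM of female SHR and WKY rats was sequenced by the study. The values deposited by the authors are expected counts per gene (estimated counts of RSEM 1.3.1 after STAR 2.6.1 alignment, per the methods of the study), and they were rounded to whole numbers here. The methods name ComBat_seq, but whether the deposited counts had been adjusted is not given in the sources used here, and an adjustment could shift levels between libraries.

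Genes were kept where the highest rlog value reached 3.5. The 46 CVLM libraries were fitted by strain and age with edgeR 4.0.16 (R 4.3.3, TMM scaling, quasi-likelihood test), and SHR was compared with WKY at 16 wk, with Benjamini-Hochberg adjustment over all tested genes. Differences between regions came from 1 fit of the libraries of all 3 regions with the rat as a block. In its repeats without 1 rat, the trended dispersions of the whole fit were kept. DESeq2 1.42.0, limma 3.58.1 (voom), other filters and scaling, and fits without single libraries were alternatives, and the scripts were tested on simulated data. CPM used TMM-scaled totals. Total counts of 6143329 to 11319792 per library set the precision, and intervals of count ratios cover counting error only. No pair of libraries looked like 1 library deposited in duplicate.

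The comparison and gene lists were chosen with earlier results of these data known. Named are, per direction, the 12 genes with a symbol and 4 without one of largest change among called, non-overlapping genes with a mean of at least 20 counts, list members at an adjusted p under 0.05 and members needed to describe a list, the leading genes of the age and region differences, genes called at 16 wk only, and the genes the study names for the CVLM. Other called genes were added for their known roles after their values were seen, and this is said where they stand. A pair of 8-wk libraries whose age labels conflict were placed by title. Some genes that meet the rule are not reported here.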

Additional observations from a re-analysis of the deposited data

Results flagged for a closer look

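In 10 of 131 genes checked, 1 of the 6 SHR libraries stood apart from the others, judged by the gap to its nearest neighbour divided by the whole range (Dixon's ratio, above its 95% critical value). Chance gives such a library in about 1 of 20 groups. SHR replicate 4 was the highest for RT1-A1 (137.5 CPM, next 117, ratio 0.737), AABR07044404.1 (12.5, next 6.82, 0.67), Igfbp5 (131, next 87.6, 0.627), Itgb2 (13.3, next 8.18, 0.721), the astrocyte gene Gfap (780, next 395, 0.68) and Agt (1220, next 843, 0.748). SHR replicate 3 was the highest for AABR07064061.1 (63.6 CPM, next 54.1, ratio 0.685), Cfap206 (0.324, next 0.112, 0.654) and Isg20 (1.29, next 0.678, 0.681). SHR replicate 5 was the lowest for LOC100909441 (1.27 CPM, next 8.34, ratio 0.792). The strain effect on Cfap206 differed between the CVLM and the NTS by -3.70 on the log2 scale (edgeR, joint fit with the rat as a block, adjusted p = 0.00175).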

How the results depend on the processing

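All 134 called genes kept their sign in each alternative. Calls numbered 149 with DESeq2 (133 shared with the 134), 134 with RLE scaling, 133 with limma voom, 137 without the filter, 142 with filterByExpr and 113 from the 9 libraries alone. With absolute log2 fold changes above 2, 59 genes were called, 34 higher and 25 lower. Without 1 library at a time, calls ran from 114 to 130 (56 to 65 higher, 57 to 66 lower), and genes at an adjusted p under 0.05 from 213 to 298. Of 82 genes in the text at that threshold, 67 kept it in each of these fits. Replicate numbers did not pair SHR with WKY libraries (correlation of same-numbered deviations -0.148, -0.333 and 0.129), so samples share only a number. A replicate block within age left 102 calls (98 shared) and 189 genes at an adjusted p under 0.05, and 18 genes in the text no longer passed that threshold. The age difference held 3 genes with DESeq2 (Gdf1, Wdr77 and LOC103692716) and 0 in the other alternatives, and the cause was not tested. The region differences stayed at 1 and 0 genes without each rat and without the block. Grik1 and Glra2 passed with DESeq2 (adjusted p = 0.0394 and 0.0373). In the edgeR fit of the 9 libraries alone, these genes did not pass an adjusted p under 0.05: Cd4 (0.082), Igfbp4 (0.0597), Hba-a2 (0.0788), Hbb (0.083) and Ifit2 (0.386). Depth limits genes of few counts, such as Ifit1, Cfb and RT1-DOb in WKY rats. With 3 WKY rats, 1 library decides whether several genes pass 0.05.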
